A study of Mus musculus with 8 samples.

Results

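Oligodendrocyte precursor genes are 9 genes used as markers of the cells that give rise to myelin-forming oligodendrocytes: Pdgfra, Cspg4, Cspg5, C1ql1, Gpr17, Olig1, Olig2, Neu4 and Lhfpl3. They were chosen by name, from their known expression in this cell type. No value in these data enters the rule, but earlier results of the same data were known when the list was drawn up. All 9 were found, 1 row each, in a deposited table of 24883 rows. All 9 also passed the filter for testing, a mean of at least 0.5 FPKM (sequenced fragments divided by the length of the transcript and by the number mapped in the library), which 13912 rows passed.

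The values come from RNA sequencing of visual cortex of adult C57BL/6J mice. Every animal carried an injection into the cortex on postnatal day 122, and the cortex was collected on postnatal day 129, after an interval of 7 days. For the 4 control libraries, called scrambled below, the injected agent was an LNA oligonucleotide of scrambled sequence, LNA being a nucleic acid whose locked nucleotides bind tightly to their complement. The 4 libraries called anti-miR-29a came from cortex given an LNA oligonucleotide directed against miR-29a, a small RNA that represses messenger RNAs carrying a match to its seed. The sources used here give neither the dose nor the cells that the oligonucleotide reached, and no uninjected cortex was analysed here. Whether each library stands for its own animal is not said in the labels, and the p-values therefore rest on a spread among samples that may in part be technical.

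Oligodendrocyte precursors persist in the adult cortex, where they divide slowly, receive synapses from neurons and produce new oligodendrocytes throughout life. Platelet-derived growth factor, acting on the receptor encoded by Pdgfra, drives their division and survival, and the receptor is lost as the cells commit to differentiation. The transcription factors Olig1 and Olig2 mark the whole lineage, while the G protein-coupled receptor Gpr17 appears in committed precursors and disappears again before myelin is made.

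The mature miR-29 sequences are shown because they define the match sought in each gene. They are from RefSeq (GRCm38.p6), written 5′ to 3′, with the seed, bases 2 to 8, in capitals. The miR-29a-3p sequence lies on the minus strand of chromosome 6 at chr6:31062673-31062694.
mmu-miR-29a-3p: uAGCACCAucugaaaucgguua
mmu-miR-29b-3p: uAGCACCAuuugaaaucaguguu
mmu-miR-29c-3p: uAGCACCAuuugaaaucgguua
All 3 share the same seed, so the match in a messenger RNA is TGGTGCT for each of them. In the longest annotated 3′ UTR of each gene (GENCODE M21, GRCm38), read on the transcript's own strand, this match was present in 3 of the 9 precursor genes, Pdgfra, Cspg4 and Gpr17. It was absent from these windows of Cspg5, C1ql1, Olig1, Olig2, Neu4 and Lhfpl3. Over all tested rows with an annotated 3′ UTR, 2074 of 13148 held it, or 15.8%.

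The Pdgfra and Cspg4 matches are printed with 30 bases of 3′ UTR each, on the plus strand and with the match in capitals, because they are the stretches of these 3′ UTRs that are complementary to the seed.
Pdgfra, chr5:75196351-75196380: ccctgagaccacaaTGGTGCTgttgaatga
Pdgfra, chr5:75196512-75196541: atatatgaactgccTGGTGCTcttgaatag
Cspg4, chr9:56899344-56899373: aaagctatttaacaTGGTGCTggcctagcc
Cspg4, chr9:56899568-56899597: tgagccgtggcgaaTGGTGCTtcggaggct
Pdgfra holds 2 matches in a 3′ UTR of 3115 nt and Cspg4 holds 2 in 980 nt. Gpr17 has 1 match in 3992 nt. None of the 5 matches is followed by the A that makes an 8-base site, a form found in 3.36% of the 3′ UTRs searched. The 3′ UTR of C1ql1 is short, at 469 nt against a median of 1228 nt over the rows searched, and that of Cspg5 is long, at 6091 nt. A match describes letters in a window and is not evidence of binding.

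The 8 libraries were alike in breadth, with between 12538 and 12769 rows at 1 FPKM or more in a library. The spacing of low values gave relative depths of 0.976 to 1.16, with scrambled replicate 1 at 1. Anti-miR-29a replicate 2 had the highest estimate. These depths are weakly supported. Outside scrambled replicate 1, only 5.86% to 8.59% of a library's low rows lay close to its most common value. Read counts were not used here, so likeness in depth was not established. Libraries of the same group correlated at 0.932 to 0.963 and libraries of different groups at 0.931 to 0.957. The 12 neuron markers summed to 3941 to 4205 FPKM in the scrambled and 3910 to 4165 FPKM in the anti-miR-29a libraries. No other tissue was compared, so this sum shows neuronal RNA and cannot tell visual cortex from other brain regions. Of the 13912 tested rows, 2 passed the threshold, an adjusted p under 0.05 by limma with Benjamini-Hochberg adjustment over all of them.

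All 9 precursor genes were detected in every library, at levels that spanned a wide range. FPKM is scaled to transcript length, so levels can be compared roughly between genes. The annotation that set the lengths is not given, and GC content differs between the genes, from 41.5% in Lhfpl3 to 65.8% in C1ql1. Cspg5 was the most abundant, with a mean over the 8 libraries of 75.4 FPKM, followed by Olig1 at 32.1 FPKM. A middle group held Olig2 at 8.77, Gpr17 at 7.69, C1ql1 at 6.35 and Pdgfra at 4.63 FPKM. Lhfpl3 averaged 3.65, Cspg4 2.07 and Neu4 1.14 FPKM. The ranges of Cspg5, Olig1 and Olig2 did not overlap, nor did those of Lhfpl3, Cspg4 and Neu4. From Olig2 to Lhfpl3 each gene's range overlapped that of the next. Within single libraries Olig2 was above Gpr17 in 5 of 8, Gpr17 above C1ql1 in 6 of 8 and C1ql1 above Pdgfra in 6 of 8, whereas Pdgfra was above Lhfpl3 in all 8. The best known precursor markers, Pdgfra and Cspg4 (which encodes the proteoglycan NG2), were thus among the lower of the 9. Neurons and astrocytes also express Cspg5, and oligodendrocytes retain Olig1 and Olig2, so these levels are those of the tissue and not of precursors alone.

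**Figure D1:**
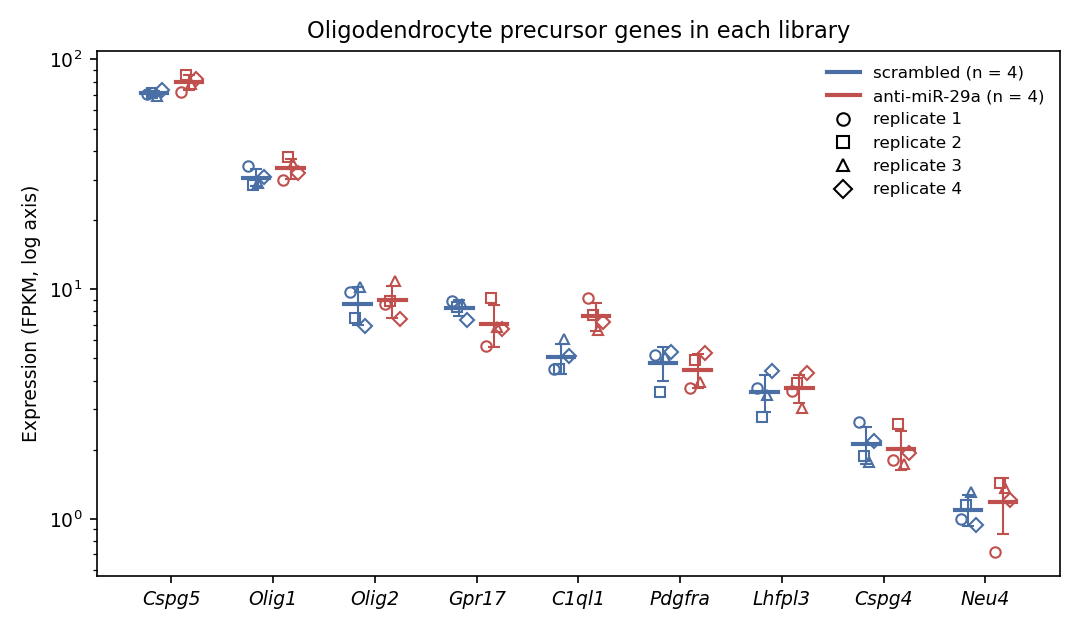
FPKM (log axis) of the 9 precursor genes in each of the 4 scrambled and 4 anti-miR-29a libraries (points, shaped by replicate), with group means as horizontal bars and SD as error bars. Only C1ql1 has all 4 anti-miR-29a values above all 4 scrambled values, and Cspg5 has 3 of 4.

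None of the 9 precursor genes passed the threshold after anti-miR-29a; over all tested rows 0.0144% did. C1ql1 was the gene that stood farthest apart, with a mean 1.52 times the scrambled mean and no overlap between groups. Cspg5 showed a smaller difference upward. The other 7 had log2 differences, anti-miR-29a minus scrambled on the log2(FPKM + 0.1) scale, between -0.24 and 0.13, and every one of their 95% intervals included 0. At an unadjusted limma p under 0.05 there were 2 of 9 precursor genes in the higher direction (C1ql1 and Cspg5), beside 7.54% of all tested rows. In the lower direction there were 0 of 9, beside 3.18% of all rows. Groups did not overlap for 1 of 9 in the higher direction, beside 4.02% of rows, and for 0 of 9 in the lower, beside 2.29%. The differences were positive for 6 genes and negative for 3, with a median of 0.06, against 0.03 over all tested rows, of which 7873 of 13912 were positive. In a bulk tissue sample, fewer cells of a type and less RNA per cell cannot be told apart.

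**Figure D2:**
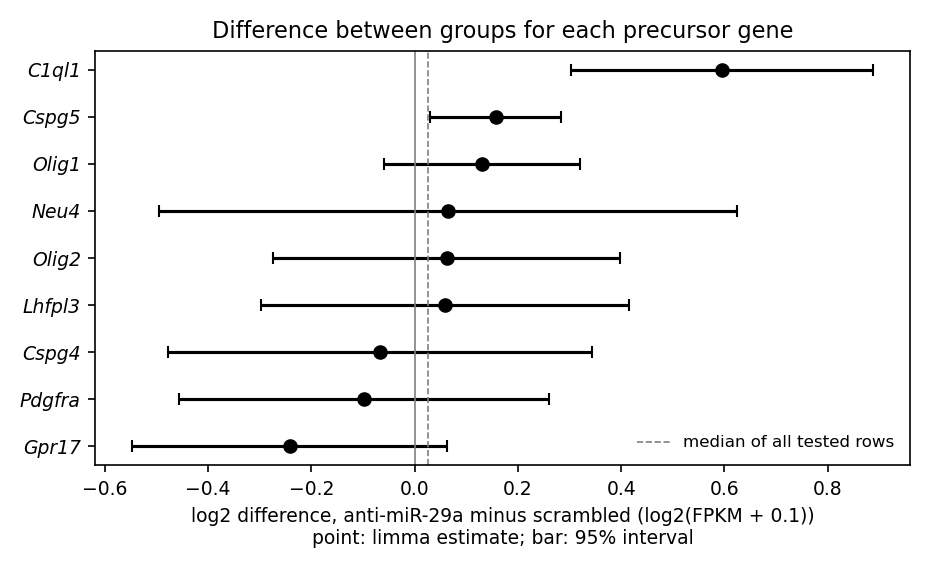
Log2 difference (anti-miR-29a minus scrambled, on log2(FPKM + 0.1)) of each precursor gene, with its limma 95% interval, for 4 libraries a group. The intervals of C1ql1 and Cspg5 lie above 0, and those of the other 7 genes include 0.

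Pdgfra encodes the receptor for platelet-derived growth factor and lies on the plus strand of chromosome 5 (chr5:75152292-75198215, GRCm38). Its scrambled libraries, in replicate order, held 5.19, 3.57, 5.07 and 5.34 FPKM, and its anti-miR-29a libraries 3.72, 4.91, 3.96 and 5.26 FPKM. The groups overlapped throughout, and scrambled replicate 2 was the lowest of the 8. The means were 4.79 ± 0.82 (SD, n = 4) and 4.46 ± 0.74 FPKM (SD, n = 4), a log2 difference of -0.10 with a standard error of 0.16 and a 95% interval of -0.46 to 0.26 (limma adjusted p = 0.857). Leaving out single libraries gave differences from -0.23 (without scrambled replicate 2, limma adjusted p = 0.683) to -0.02 (without anti-miR-29a replicate 1, limma adjusted p = 0.979). Antisense gene Gm42802 shares 456 of the 10024 exonic bases of Pdgfra (4.55%), and the library kit does not mark strand, so reads of these bases cannot be assigned to either gene.

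None of the 4 PDGF ligand genes, nor the gene of the other receptor, passed the threshold. Pdgfa, which encodes the main PDGF ligand for precursors, averaged 16.7 ± 1.07 FPKM in scrambled and 17.9 ± 0.42 FPKM in anti-miR-29a libraries (SD, n = 4 each). Pdgfb differed by 0.17 on the log2 scale and Pdgfrb, the receptor of pericytes, by 0.12. Pdgfd differed by -0.15, and by 0.15 without scrambled replicate 3, whose 1.47 FPKM was the highest of its group. Pdgfc was the gene of this list with the smallest p, at 1.59 ± 0.31 FPKM in scrambled and 0.99 ± 0.35 FPKM in anti-miR-29a libraries (SD, n = 4 each; log2 difference -0.67, limma adjusted p = 0.436). This difference was larger in size than that of C1ql1 but less precise, and it was -0.42 without anti-miR-29a replicate 4. The median of the 5 genes was 0.10, against 0.03 over all rows.

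Gpr17, the receptor of committed precursors, lies on the minus strand of chromosome 18 (chr18:31942997-31949636). It measured 8.87, 8.34, 8.61 and 7.34 FPKM in the scrambled libraries and 5.65, 9.12, 6.83 and 6.72 FPKM in the anti-miR-29a libraries. In anti-miR-29a replicates 1, 3 and 4 it was below every scrambled library, while replicate 2 held the highest value of all 8. The log2 difference was -0.24 with a standard error of 0.14 and a 95% interval of -0.55 to 0.06 (limma adjusted p = 0.555; exact two-sided permutation p = 0.20). Without anti-miR-29a replicate 2 it was -0.37, with an unadjusted p of 0.00769 and an adjusted p of 0.43 by limma, and without anti-miR-29a replicate 1 it was -0.14, with an unadjusted p of 0.29. Gpr17 lies within the span of Lims2 on the opposite strand, and 188 of its 5195 exonic bases (3.62%) are shared. Lims2 itself averaged 4.76 ± 1.17 FPKM in scrambled and 5.99 ± 1.19 FPKM in anti-miR-29a libraries (SD, n = 4 each), a difference of the opposite sign.

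C1ql1 encodes a secreted protein of the C1q family that binds the adhesion receptor Adgrb3 and that, in cortex, marks precursors. It lies on the minus strand of chromosome 11 (chr11:102939264-102946688), in 1473 exonic bases of which none is shared with another annotated gene. The scrambled libraries held 4.47, 4.49, 6.07 and 5.14 FPKM, and the anti-miR-29a libraries 9.12, 7.73, 6.64 and 7.17 FPKM. Every anti-miR-29a library was thus above every scrambled one, with anti-miR-29a replicate 1 the highest and scrambled replicate 3 the nearest from below. The means of 5.04 ± 0.75 and 7.66 ± 1.07 FPKM (SD, n = 4 each) gave a log2 difference of 0.59 with a standard error of 0.13 and a 95% interval of 0.30 to 0.89. The exact two-sided permutation p was 0.0286, the smallest that 70 relabellings can give. With limma the unadjusted p was 0.00109 and the adjusted p 0.201, so the difference missed the threshold over all rows. Leaving out each library in turn gave 0.51 (without anti-miR-29a replicate 1) to 0.69 (without scrambled replicate 3).

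The receptor and the relatives of C1ql1 did not pass the threshold either. Adgrb3 averaged 15.5 ± 0.52 FPKM in scrambled and 15.6 ± 2.12 FPKM in anti-miR-29a libraries (SD, n = 4 each), with a log2 difference of -0.00 and a 95% interval of -0.22 to 0.21. C1ql3, a paralog expressed by cortical neurons, differed by -0.14. C1ql2 was near the detection limit, with a scrambled range from 0 to 1.14 FPKM and an anti-miR-29a range from 0.753 to 1.84 FPKM, so its log2 difference of 1.49 rests on very low values (limma adjusted p = 0.481) and was 0.81 without scrambled replicate 2.

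Set against its fellow precursor genes, C1ql1 departed from them in the anti-miR-29a libraries. The ratio of C1ql1 to Pdgfra was 0.863, 1.26, 1.20 and 0.963 in the scrambled and 2.45, 1.58, 1.68 and 1.36 in the anti-miR-29a libraries, with no overlap. Relative to the median deviation of the other 8 genes in the same library, C1ql1 stood at -0.27, -0.03, 0.26 and 0.01 log2 units in the scrambled and at 0.97, 0.41, 0.44 and 0.41 in the anti-miR-29a libraries. The median deviation of those 8 genes itself ran from -0.12 to 0.11 in scrambled and from -0.12 to 0.20 in anti-miR-29a libraries, which overlap. Among the other members only Gpr17 to Pdgfra and Olig1 to Olig2 were computed as ratios, and neither separated the groups. Gpr17 to Pdgfra ran from 1.37 to 2.34 in scrambled and from 1.28 to 1.86 in anti-miR-29a libraries. Olig1 to Olig2 ran from 2.83 to 4.45 and from 3.22 to 4.31. These ratios and deviations were computed after the C1ql1 values were known and carry no test. Deviations are taken from each gene's own scrambled mean, so those of C1ql1 largely restate its difference between groups.

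**Figure D3:**
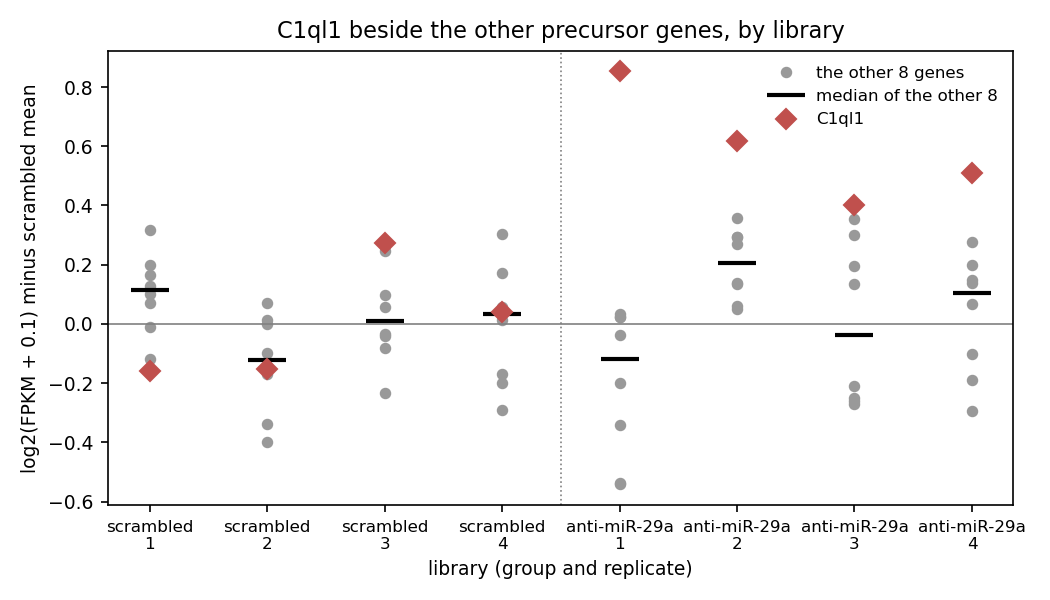
Deviation from the scrambled mean, in log2 units, of C1ql1 (diamonds), the other 8 precursor genes (grey points) and the median of those 8 (black bars), in each of the 8 libraries. C1ql1 lies 0.41 to 0.97 above that median in the 4 anti-miR-29a libraries, and at -0.27 to 0.26 relative to it in the 4 scrambled ones.

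The region around C1ql1 was looked at after its values were seen. Within 250 kb of its start 12 other genes were tested, 6 with positive and 6 with negative differences and a median of 0.09. Groups did not overlap for 2 of the 12, both higher in anti-miR-29a libraries, beside 4.02% of all tested rows in that direction. Dcakd, its nearest tested neighbour on the upstream side (47358 bases away, on the same strand), encodes a protein with a dephospho-CoA kinase domain. It held 18.04, 17.3, 19.3 and 19.9 FPKM in scrambled and 25.5, 30.3, 28.4 and 25.9 FPKM in anti-miR-29a libraries. Those values are far apart between groups, with a log2 difference of 0.56, a standard error of 0.08 and a limma adjusted p of 0.0749. Hexim1 was the other gene, with a log2 difference of 0.24 and a limma adjusted p of 0.273. Nmt1, on the opposite strand, whose first bases overlap those of Dcakd, differed by -0.10 with overlapping groups. Gfap, the astrocyte intermediate filament gene 45.8 kb downstream, ranged from 109 to 248 FPKM in scrambled and from 163 to 392 FPKM in anti-miR-29a libraries, which overlap. Its log2 difference of 0.72 was the largest of the 12 and had a 95% interval of 0.01 to 1.43 (limma adjusted p = 0.457).

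**Figure D4:**
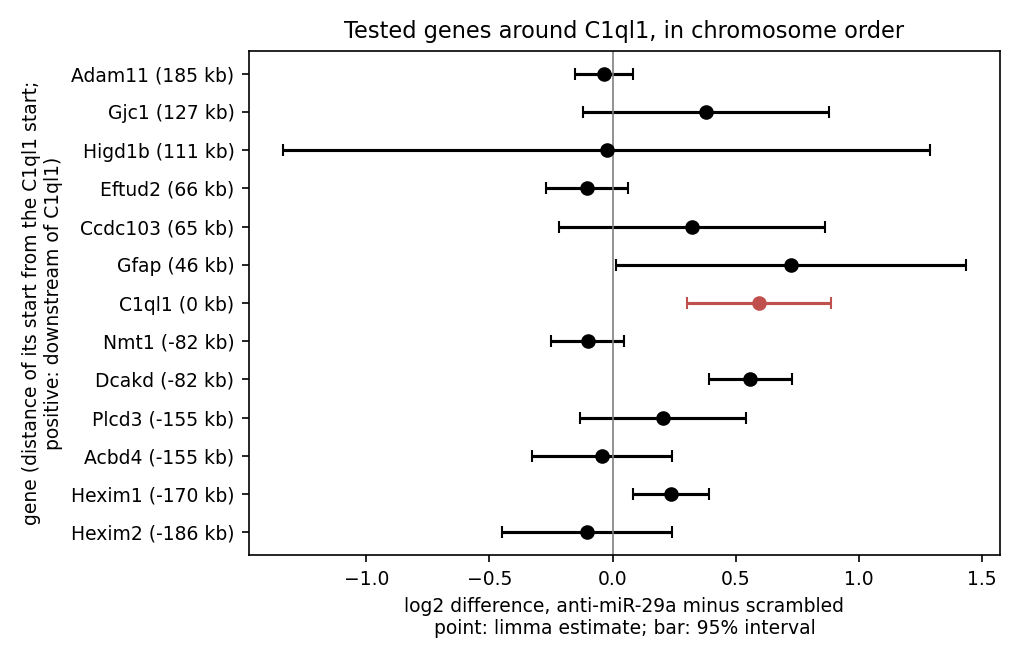
Log2 difference with limma 95% interval of C1ql1 and the 12 other tested genes within 250 kb of its start, in chromosome order, with each gene's distance in kb in brackets. C1ql1 lies at 0.59, Dcakd at 0.56 and Gfap, with a wider interval, at 0.72, while Nmt1 beside Dcakd is at -0.10.

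Olig1 and Olig2, the helix-loop-helix transcription factors of the lineage, lie 41094 bases apart on the plus strand of chromosome 16 (chr16:91269772-91271933 and chr16:91225457-91228677). Olig1 held 34.3, 28.5, 28.9 and 30.8 FPKM in scrambled and 29.8, 37.5, 35.0 and 32.0 FPKM in anti-miR-29a libraries. Only anti-miR-29a replicates 2 and 3 exceeded all scrambled libraries, and the log2 difference was 0.13 with a 95% interval of -0.06 to 0.32 (limma adjusted p = 0.624). Olig2 ran from 6.92 to 10.2 FPKM in scrambled and from 7.43 to 10.9 FPKM in anti-miR-29a libraries, with a log2 difference of 0.06 and a 95% interval of -0.27 to 0.40. It was negative, at -0.04, without scrambled replicate 4 or without anti-miR-29a replicate 3. A lncRNA on the other strand, Gm15966, shares 157 of the 2162 exonic bases of Olig1 (7.26%).

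Cspg5 and Cspg4 encode transmembrane chondroitin sulfate proteoglycans and both lie on the plus strand of chromosome 9 (chr9:110243783-110262576 and chr9:56865033-56899870). Cspg5 held 70.7, 71.2, 69.3 and 73.9 FPKM in scrambled and 72.4, 85.9, 78.3 and 81.9 FPKM in anti-miR-29a libraries. It was above every scrambled library in anti-miR-29a replicates 2, 3 and 4, while replicate 1 lay within the scrambled range. The means were 71.3 ± 1.91 and 79.6 ± 5.75 FPKM (SD, n = 4 each), a log2 difference of 0.16 with a standard error of 0.06 and a 95% interval of 0.03 to 0.28 (limma unadjusted p = 0.0201, adjusted p = 0.375). Its exact two-sided permutation p was 0.0571. Its spread was the smallest of the 9, with a residual SD of 0.08 log2 units against a median of 0.17 over tested rows. Under quantile normalization the unadjusted limma p was 0.0674, and without anti-miR-29a replicate 2 or replicate 4 it was 0.0617 or 0.0546. Over all 18 alternatives the log2 difference ran from 0.11 to 0.22, with limma adjusted p from 0.241 to 0.581.

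Cspg4 held 2.63, 1.88, 1.77 and 2.18 FPKM in scrambled and 1.81, 2.59, 1.73 and 1.94 FPKM in anti-miR-29a libraries. The groups covered nearly the same range, and the log2 difference was -0.07 with a 95% interval of -0.48 to 0.34. Without scrambled replicate 1 it was 0.04.

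Neu4, a sialidase that removes sialic acid from glycoproteins and glycolipids, lies on chromosome 1 (chr1:94020451-94028334, plus strand) and was the least abundant. It ran from 0.937 to 1.31 FPKM in scrambled and from 0.719 to 1.43 FPKM in anti-miR-29a libraries, and the anti-miR-29a libraries held both the highest and the lowest value. The log2 difference was 0.06 with a 95% interval of -0.50 to 0.63, the widest of the 9. Neu1, the lysosomal sialidase, averaged 10.5 ± 0.76 FPKM in scrambled and 11.8 ± 0.54 FPKM in anti-miR-29a libraries (SD, n = 4 each) with no overlap (log2 difference 0.17, limma adjusted p = 0.475). Neu2 differed by 0.33 and Neu3 by -0.09.

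Lhfpl3 encodes a tetraspan membrane protein and spans a long stretch of the plus strand of chromosome 5 (chr5:22746059-23275597). It ran from 2.78 to 4.39 FPKM in scrambled and from 3.04 to 4.30 FPKM in anti-miR-29a libraries, the second range inside the first. The log2 difference was 0.06 with a 95% interval of -0.30 to 0.41. A930003O13Rik on the opposite strand shares 567 of its 3213 exonic bases (17.6%). Its relatives differed by 0.12 (Lhfpl2), -0.08 (Lhfpl4), 0.08 (Lhfpl5) and 0.07 (Lhfp). Over the whole list of relatives and partners, 13 of 17 genes were tested and none passed, with 8 positive and 5 negative differences and a median of 0.08. Itgb1, an integrin subunit, had an unadjusted limma p under 0.05 at a log2 difference of 0.35, and Grip1 and Itga3 differed by 0.23 and -0.16. Olig3 was listed at 0 in all 8 libraries, while Lhfpl1, Cysltr1 and Cysltr2 were below the filter.

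The 3 precursor genes with a miR-29 seed match were those with negative differences, -0.10 for Pdgfra, -0.07 for Cspg4 and -0.24 for Gpr17, and the 6 without a match were those with positive ones. Because the 95% intervals of all 3 matched genes included 0, and the signs of Cspg4, Olig2, Neu4 and Lhfpl3 turned when single libraries were left out, this division is a description of 9 estimates. The 2 precursor genes with the smallest p, C1ql1 and Cspg5, carried no match in the windows searched.

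The 9 genes varied together only in part from library to library. Measured as the mean of the 9 standardized log2 levels, the scrambled libraries stood at 0.25, -0.76, -0.03 and -0.12, and the anti-miR-29a libraries at -0.59, 0.98, 0.05 and 0.22. Anti-miR-29a replicate 2 had all 9 genes above their own means over the 8 libraries, while scrambled replicate 2 and anti-miR-29a replicate 1 each had 7 of 9 below. Both groups therefore held a low library, and the groups overlapped. Summed FPKM of the 9 genes ran from 129 to 141 in scrambled and from 135 to 162 in anti-miR-29a libraries, a sum that Cspg5 and Olig1 dominate. Without these 2 genes it ran from 29.7 to 36.5 and from 33.3 to 38.5.

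Among the 36 pairs of precursor genes, log2 levels over the 8 libraries were positively correlated in 25, with a median r of 0.24. No pair passed after Benjamini-Hochberg adjustment of exact permutation p-values over the 36. The closest pair was Pdgfra and Lhfpl3, with r = 0.79 (exact permutation p = 0.0222, adjusted p = 0.798), rho = 0.83 (exact permutation p = 0.0154, adjusted p = 0.554) and r = 0.84 without the 2 libraries farthest from the Pdgfra median. Cspg5 and Olig1 followed with r = 0.72 (exact permutation p = 0.0451, adjusted p = 0.812), rho = 0.67 (exact permutation p = 0.0831, adjusted p = 0.805) and r = 0.61 without 2 libraries. Because these are tissue samples, the libraries share their depth and cell make-up across genes.

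Over 12706 rows with a mean of at least 1 FPKM, the profiles most like the mean standardized level of the 9 genes in the 8 libraries were those of Rhoj (r = 0.96), D17H6S56E-5 (r = 0.96), Patz1 (r = 0.95), Lrig1 (r = 0.95) and Tmem176b (r = 0.94). The most opposite were those of Hs3st5 (r = -0.96), Usp14 (r = -0.95) and Gp1bb (r = -0.95). With 8 libraries and this many rows the extremes of r are selected values and are given as a description, with no test.

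Other genes of the precursor stage followed no common direction. Of 15 tested, 6 differences were positive and 9 negative, none passed, and the median was -0.16 against 0.03 over all rows. Without anti-miR-29a replicate 1 that median was -0.01. Bcan, which encodes the matrix proteoglycan brevican, averaged 63.6 ± 1.98 FPKM in scrambled and 72.3 ± 2.83 FPKM in anti-miR-29a libraries (SD, n = 4 each) with no overlap (log2 difference 0.18, limma adjusted p = 0.234). Tnr, which encodes the matrix protein tenascin-R, differed by -0.34 (limma adjusted p = 0.314). Cacng4, which encodes an auxiliary subunit of AMPA receptors, differed by -0.72 (limma adjusted p = 0.461), with a single anti-miR-29a library at 2.37 FPKM against 6.38 to 8.04 FPKM in the other 3. Without that library, replicate 3, Cacng4 differed by -0.34.

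Regulators of the lineage were balanced. Of 23 tested, 12 differences were positive and 11 negative, with a median of 0.02 and none past the threshold. Hes5, a Notch target, differed by -0.44 and the histone deacetylase gene Hdac1 by 0.26, both with overlapping groups. Id2, the most abundant of the list, held 87.5 ± 2.66 and 86.6 ± 5.92 FPKM (SD, n = 4 each).

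Genes of later stages had more negative than positive differences, and none passed the threshold. Among 14 tested genes of newly forming oligodendrocytes 5 differences were positive and 9 negative, with a median of -0.05. Those of smallest p were Tns3 (-0.24), Lims2 (0.34) and Kif19a (0.30), all with overlapping groups. Tns3 was at -0.11 without anti-miR-29a replicate 1 and Lims2 at 0.16 without scrambled replicate 2. The most abundant was Sirt2 at 85.9 ± 10.6 and 81.6 ± 10.3 FPKM (SD, n = 4 each). Of the 24 mature oligodendrocyte genes 6 differences were positive and 18 negative, and their median was -0.10. Leaving out scrambled replicate 1 turned that median to 0.04 and leaving out scrambled replicate 4 took it to -0.22, so its direction rests on single libraries. Per library the median deviation of the mature genes ran from -0.43 to 0.47 in scrambled and from -0.25 to 0.11 in anti-miR-29a libraries.

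Opalin, a membrane protein of myelinating cells, was the mature gene of smallest p. It averaged 14.6 ± 3.14 FPKM in scrambled and 9.37 ± 2.18 FPKM in anti-miR-29a libraries (SD, n = 4 each), a log2 difference of -0.64 with a limma adjusted p of 0.314. Leaving out single libraries gave -0.80 to -0.46. A term for replicate number in the fit gave Opalin a limma adjusted p of 0.195. Gjb1 and Fa2h, which encode a gap junction protein and an enzyme of myelin lipid synthesis, differed by -0.38 and -0.35, and Fa2h by -0.17 without scrambled replicate 1. Mbp, the most abundant, held 810 ± 252 and 698 ± 104 FPKM (SD, n = 4 each), with scrambled replicate 1 alone at 1152 FPKM.

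**Figure D5:**
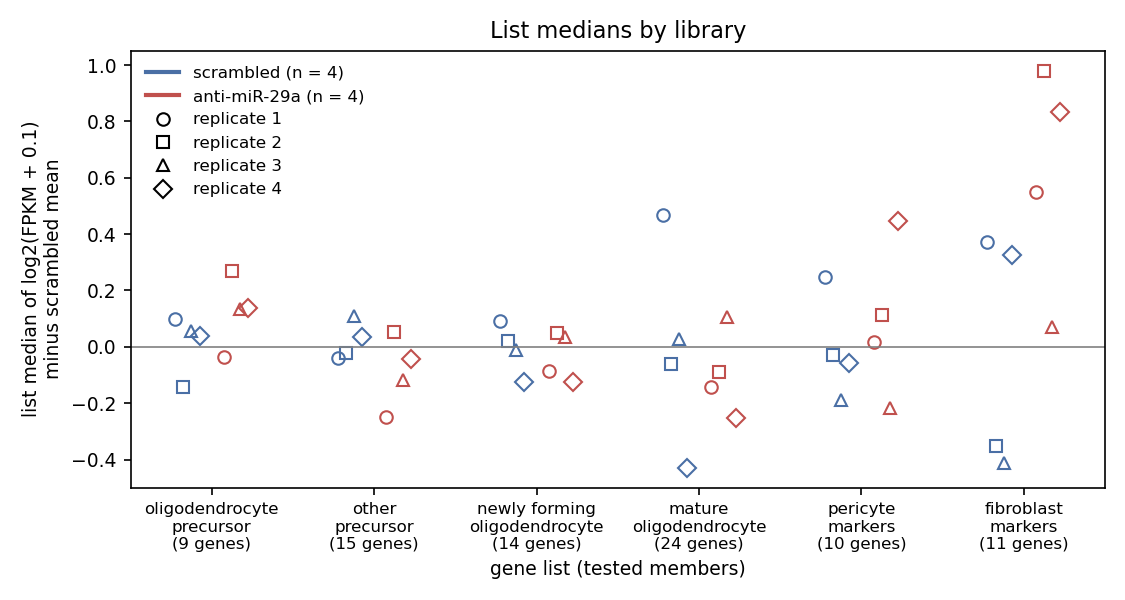
Median deviation from the scrambled mean (log2 units) of 6 gene lists, the oligodendrocyte stages and the pericyte and fibroblast markers, 1 point a library, for 4 scrambled and 4 anti-miR-29a libraries. The groups overlap in all 6 lists, and the mature list has the widest scrambled range, -0.43 to 0.47.

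Signals acting on precursors and genes of division gave few differences. Of 17 signal genes 9 differences were positive and 8 negative, with a median of 0.03 and none past the threshold. Igf1r, the receptor for insulin-like growth factor, averaged 7.06 ± 0.49 FPKM in scrambled and 5.86 ± 0.17 FPKM in anti-miR-29a libraries (SD, n = 4 each) with no overlap (log2 difference -0.26, limma adjusted p = 0.313). Fgfr1 differed by 0.25 and Adgrg1 by 0.13, and Lingo1, the most abundant, held 113 ± 7.40 and 117 ± 4.84 FPKM (SD, n = 4 each). Of 17 tested cell cycle genes 11 differences were positive and 6 negative, with a median of 0.06 and none past the threshold. Cdkn1a, which encodes the cell cycle inhibitor p21, averaged 11.3 ± 0.65 FPKM in scrambled and 15.8 ± 1.30 FPKM in anti-miR-29a libraries (SD, n = 4 each) with no overlap (log2 difference 0.48, limma adjusted p = 0.106). Ccne1 and Pcna differed by 0.28 and 0.16. The mitotic genes Mki67 and Top2a were below the filter, at 0.188 and 0.223 FPKM in scrambled and 0.198 and 0.209 FPKM in anti-miR-29a libraries, so division of precursors was not measurable from them.

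Markers of other cells that express some of the 9 genes were read in the same libraries. Pericytes also carry Cspg4, and their 10 markers had 6 positive and 4 negative differences with a median of 0.09 and summed levels of 59.1 to 72.1 FPKM in scrambled and 55.8 to 82.5 FPKM in anti-miR-29a libraries. Within that list Vtn differed by 0.25, Cd248 by 0.57 and Rgs5 by -0.42. Meningeal and perivascular fibroblasts also carry Pdgfra, and their markers had 10 positive differences among 11 tested, with a median of 0.51. The summed fibroblast markers ran from 368 to 558 FPKM in scrambled and from 513 to 797 FPKM in anti-miR-29a libraries. Ptgds dominates this sum, at 307 to 477 FPKM in scrambled and 449 to 686 FPKM in anti-miR-29a libraries. Of the 11 tested markers, 5 had an unadjusted limma p under 0.05 in the higher direction, beside 7.54% of all tested rows. Those of smallest p were Fmod (0.86), Ptgds (0.61) and Igf2 (0.75). Scrambled replicate 2, the library lowest in Pdgfra, had a fibroblast median deviation of -0.35, and scrambled replicate 3, with Pdgfra at 5.07 FPKM, one of -0.41. None of these markers passed the threshold, none was at 0 in all libraries, and their part in the Pdgfra values was not tested.

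Astrocyte markers, which matter for Cspg5, had 7 positive and 5 negative differences among 12, a median of 0.02 and summed levels of 924 to 1102 and 926 to 1304 FPKM. Gja1, Gfap and Aqp4 differed by 0.26, 0.72 and 0.29, while Slc1a2, the most abundant, held 292 FPKM in both groups. The 12 microglia markers had 7 positive and 5 negative differences and a median of 0.02 (C1qa 0.31, Trem2 0.37, P2ry12 -0.24). The 10 endothelial markers had 6 positive and 4 negative differences and a median of 0.09 (Ly6c1 0.28, Pecam1 0.23, Ly6a 0.29). The 12 neuron markers had 5 positive and 7 negative differences and a median of -0.01. Among them Nefm was at 0.25, Syt1 at -0.10 and the most abundant, Snap25, at -0.01. None of the markers named here passed the threshold, and their part in the values of C1ql1 and Cspg5 was not tested.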

How the data were processed

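RNA was measured in 8 libraries, 4 a group. The authors deposited 1 table of FPKM; the tools named in the submitters' processing notes are Cuffnorm, Bowtie and CASAVA 1.8.2, and the build is mm10. Their order, the annotation and the Cuffnorm scaling: not given in the sources used here. Per the labels' protocols the library kit was TruSeq v2, which does not mark strand. Repeated symbols (537 rows) stayed as separate rows.

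Values were taken as log2(FPKM + 0.1), a scale that understates the change of low genes. Rows with a mean of at least 0.5 FPKM were fitted with limma 3.58.1 (R 4.3.3), with a variance trend and no term besides group, with two-sided tests and Benjamini-Hochberg adjustment over 13912 rows at a threshold of 0.05. Exact two-sided permutation tests used all 70 relabellings. The fit was tested on simulated data. Their rows were drawn independently, so effects shared by the genes of a library, such as cell make-up, were not covered. Because FPKM carries no counts, counting error is unknown and no interval or floor from depth is given.

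The 9 members and the 14 lists beside them were chosen with earlier results of these data known. Named genes are all members, the 3 of smallest p and the most abundant of each list, all PDGF genes and relatives, and the 5 profiles most and 3 least like the members' mean. Values of 2 genes that this rule names are not reported here. Genes around C1ql1 were added after its values were seen. Alternatives were pseudocounts of 1 and 0.01, no filter, a filter at 5 FPKM, quantile normalization, median centring, robust variance, sample weights, a replicate block, a length and GC correction (99.2% of tested rows matched to GENCODE M21) and leaving out each library.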

Additional observations from a re-analysis of the deposited data

Results flagged for a closer look

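In 64 genes named in the text, 128 groups of 4 libraries were searched for a single library far from the other 3, by Dixon's criterion. Chance flags about 5% of groups, or 6.4 here, and 8 were found. Of the precursor genes only Pdgfra was among them: scrambled replicate 2 held 3.57 FPKM against 5.07 to 5.34 FPKM in the other scrambled libraries. Among the related genes, Pdgfd stood at 1.47 FPKM in scrambled replicate 3 (others 0.511 to 0.659). Adgrb3 stood at 14.7 FPKM in scrambled replicate 1 (others 15.7 to 15.8), C1ql2 at 1.84 FPKM in anti-miR-29a replicate 3 (others 0.753 to 0.909) and C1ql3 at 30.9 FPKM in scrambled replicate 4 (others 24.2 to 24.9). For C1ql3, anti-miR-29a replicate 4 was also the highest of its group, at 29.5 FPKM (others 20.9 to 23.2), but was not flagged. Tnr stood at 6.77 FPKM in anti-miR-29a replicate 2 (others 5.46 to 5.53). Igf2 stood at 14.1 FPKM in anti-miR-29a replicate 3 (others 25.2 to 27.5) and Syt1 at 303.2 FPKM in anti-miR-29a replicate 1 (others 320.7 to 323.1).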

How the results depend on the processing

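None of the precursor genes passed the threshold under any of the 18 alternatives; the filter at 5 FPKM kept 5 of the 9. Rows called by limma, 2 as reported, numbered 1 without a filter and with the filter at 5 FPKM, 10 with robust variance, 0 with the replicate block (1476 at an unadjusted p under 0.05), 0 with the length and GC correction (1160) and 1 to 4 when single libraries were left out. Precursor genes at an unadjusted p under 0.05, 2 as reported, numbered 1 under quantile normalization, where Cspg5 was lost, and 1 to 2 when single libraries were left out. C1ql1 kept a positive difference, 0.51 to 0.69, with adjusted p from 0.151 to 0.408. The median of the 9 genes ran from -0.00 to 0.10, and that of the 5 kept by the filter at 5 FPKM was 0.13. With the length and GC correction Cspg4 turned to 0.0177 and Adgrb3 to 0.0787. When single libraries were left out, Cspg4 ran from -0.19 to 0.039, Olig2 from -0.0353 to 0.15, Neu4 from -0.0333 to 0.27, Lhfpl3 from -0.0546 to 0.16, Pdgfd from -0.30 to 0.15, Adgrb3 from -0.082 to 0.0777, Neu3 from -0.21 to 0.0362 and Lhfpl5 from -0.12 to 0.25; the cause was not tested. Dcakd passed the threshold with robust variance alone (limma adjusted p = 0.0438). Replicate numbers did not pair the libraries: same-numbered libraries correlated at -0.11 to 0.01 and others at -0.23 to 0.19 in their deviations, and no scrambled library correlated best with its own number. With the replicate block C1ql1 had a limma adjusted p of 0.353. FPKM without counts limits what can be said of low genes such as Neu4, C1ql2 and the mitotic genes.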
